A study of Mus musculus with 9 samples.

Results

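The genes described here carry water and urea through the kidney tubule or switch that transport on. They are 7 aquaporins (Aqp1, Aqp2, Aqp3, Aqp4, Aqp6, Aqp7 and Aqp11), the vasopressin V2 receptor Avpr2 and the urea transporter Slc14a2. All 9 were found by gene name among the 54532 genes of the deposited table. They were measured by messenger RNA sequencing in kidney tissue from male C57BL/6J mice aged 4 months, without genetic modification in the labels. The 3 groups hold 3 libraries each. Treated unloaded mice (PBA1 to PBA3) underwent hindlimb unloading, in which the hind limbs are kept off the ground as a model of disuse and microgravity, and received the chemical chaperone 4-phenylbutyric acid (4-PBA) intraperitoneally at 100 mg per kg per day. Unloaded mice (HU1 to HU3) received vehicle instead, and ground controls (GC1 to GC3) were neither unloaded nor treated. The sources used here do not give the duration of unloading or the region of the kidney taken. A difference between unloaded mice and ground controls includes that of vehicle injection, and the 2 cannot be told apart. The labels do not say whether each library is a separate animal, so p-values measure only the spread between these libraries.

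Most filtered water is taken back in the proximal tubule and the thin descending limb through Aqp1, a channel that is open at all times. The final concentration of urine is set in the collecting duct. There vasopressin binds the V2 receptor on principal cells, cyclic AMP rises, protein kinase A is activated, and vesicles carrying Aqp2 fuse with the apical membrane; over longer times vasopressin also raises transcription of Aqp2 and Aqp3. Water leaves these cells through Aqp3 and Aqp4 in the basolateral membrane, and urea transporters encoded by Slc14a2 help to keep the inner medulla concentrated.

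The sequences before the start sites are shown for a vasopressin-responsive pair, Aqp2 and Aqp3, and for a proximal tubule pair, Aqp1 and Aqp11. Each is the 250 bases before the RefSeq start, in GRCm38.p6, read 5′ to 3′ on the gene's strand. Aqp2 lies on the plus strand (chr15:99578806-99579055), Aqp3 on the minus strand (chr4:41098184-41098433), Aqp1 on the plus strand (chr6:55336049-55336298) and Aqp11 on the minus strand (chr7:97738248-97738497). Capitals mark matches to any of 4 motifs.
Aqp2: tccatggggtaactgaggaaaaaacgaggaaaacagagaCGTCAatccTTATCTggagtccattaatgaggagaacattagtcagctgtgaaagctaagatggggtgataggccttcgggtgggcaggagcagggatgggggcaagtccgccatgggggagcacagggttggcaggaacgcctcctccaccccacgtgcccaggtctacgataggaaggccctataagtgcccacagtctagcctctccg
Aqp3: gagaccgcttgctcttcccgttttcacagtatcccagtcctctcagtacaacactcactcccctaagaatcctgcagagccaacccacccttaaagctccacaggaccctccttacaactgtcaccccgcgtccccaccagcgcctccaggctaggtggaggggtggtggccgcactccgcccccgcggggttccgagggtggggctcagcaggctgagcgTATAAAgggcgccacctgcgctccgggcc
Aqp1: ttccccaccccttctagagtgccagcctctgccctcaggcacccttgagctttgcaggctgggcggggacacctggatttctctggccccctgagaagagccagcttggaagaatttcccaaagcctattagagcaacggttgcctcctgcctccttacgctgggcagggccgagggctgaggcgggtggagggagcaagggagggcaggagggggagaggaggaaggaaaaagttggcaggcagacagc
Aqp11: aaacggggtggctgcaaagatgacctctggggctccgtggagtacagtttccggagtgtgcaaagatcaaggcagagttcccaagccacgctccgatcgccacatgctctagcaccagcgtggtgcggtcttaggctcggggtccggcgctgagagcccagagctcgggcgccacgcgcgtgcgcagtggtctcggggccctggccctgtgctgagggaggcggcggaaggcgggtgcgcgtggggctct
The motifs, searched on both strands, were the cyclic AMP response element TGACGTCA, its shorter form TGACG or CGTCA, the GATA factor motif AGATAA or TTATCT, and the TATA box TATAAA or TTTATA. The shorter form is contained in the full element, so the 2 overlap. The Aqp2 window held CGTCA at bases -211 to -207 and TTATCT at -202 to -197, counted from the start site. The Aqp3 window held TATAAA at -29 to -24, and the Aqp1 and Aqp11 windows held none of the 4. Among 32851 promoter windows of the same length, 1.55% held the full element, 17.8% the shorter form, 9.99% the GATA motif and 12.4% the TATA motif. RefSeq windows were used for 7 of the 9 genes, and Aqp4 and Slc14a2 were left out of the motif search. A match describes letters only.

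The libraries held 7595631 (HU2) to 15141784 (GC2) reads in genes. The mitochondrial genome took 63.7% to 79.3% of them in the 3 unloaded libraries, 67.1% in PBA3 and 49.7% in GC3, and 13.7% to 18.9% in PBA1, PBA2, GC1 and GC2. Reads outside it numbered 1568888 (HU2) to 12893802 (GC2). Kidney markers were present in all 9 libraries, but proximal tubule markers differed widely: the summed FPKM of 10 of them was 8616 to 57721 in treated unloaded mice, with PBA3 the lowest, 2656 to 3391 in unloaded mice, and 49406 to 60594 in ground controls. FPKM are reads per length of gene, scaled per library by the authors. In this bulk tissue, fewer cells of a type and less RNA per cell cannot be told apart.

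In ground controls the order of levels per length was Aqp1, Aqp2, Aqp3, Aqp6, Aqp7, Aqp11, Aqp4, Slc14a2 and Avpr2, from 118 FPKM for Aqp1 to 0.0415 FPKM for Avpr2. Libraries of neighbours in that order overlapped for Aqp1 with Aqp2, Aqp6 with Aqp7, Aqp11 with Aqp4, and Aqp4 with Slc14a2, and did not overlap elsewhere. The deposited lengths of Aqp4 and Slc14a2, 5082 and 3201 bases, are shorter than their exonic lengths in the GENCODE M21 annotation, 6233 and 5171 bases, so their places in this order depend on the length used. In both unloaded groups Aqp2 had the highest mean, followed by Aqp1, Aqp3 and Aqp6, and Avpr2 had the lowest. In unloaded mice without 4-PBA the 3 libraries of Aqp2 all lay above those of Aqp1, which all lay above those of Aqp3. In treated mice every pair of neighbours overlapped except the lowest, Aqp11 with Avpr2.

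**Figure D1:**
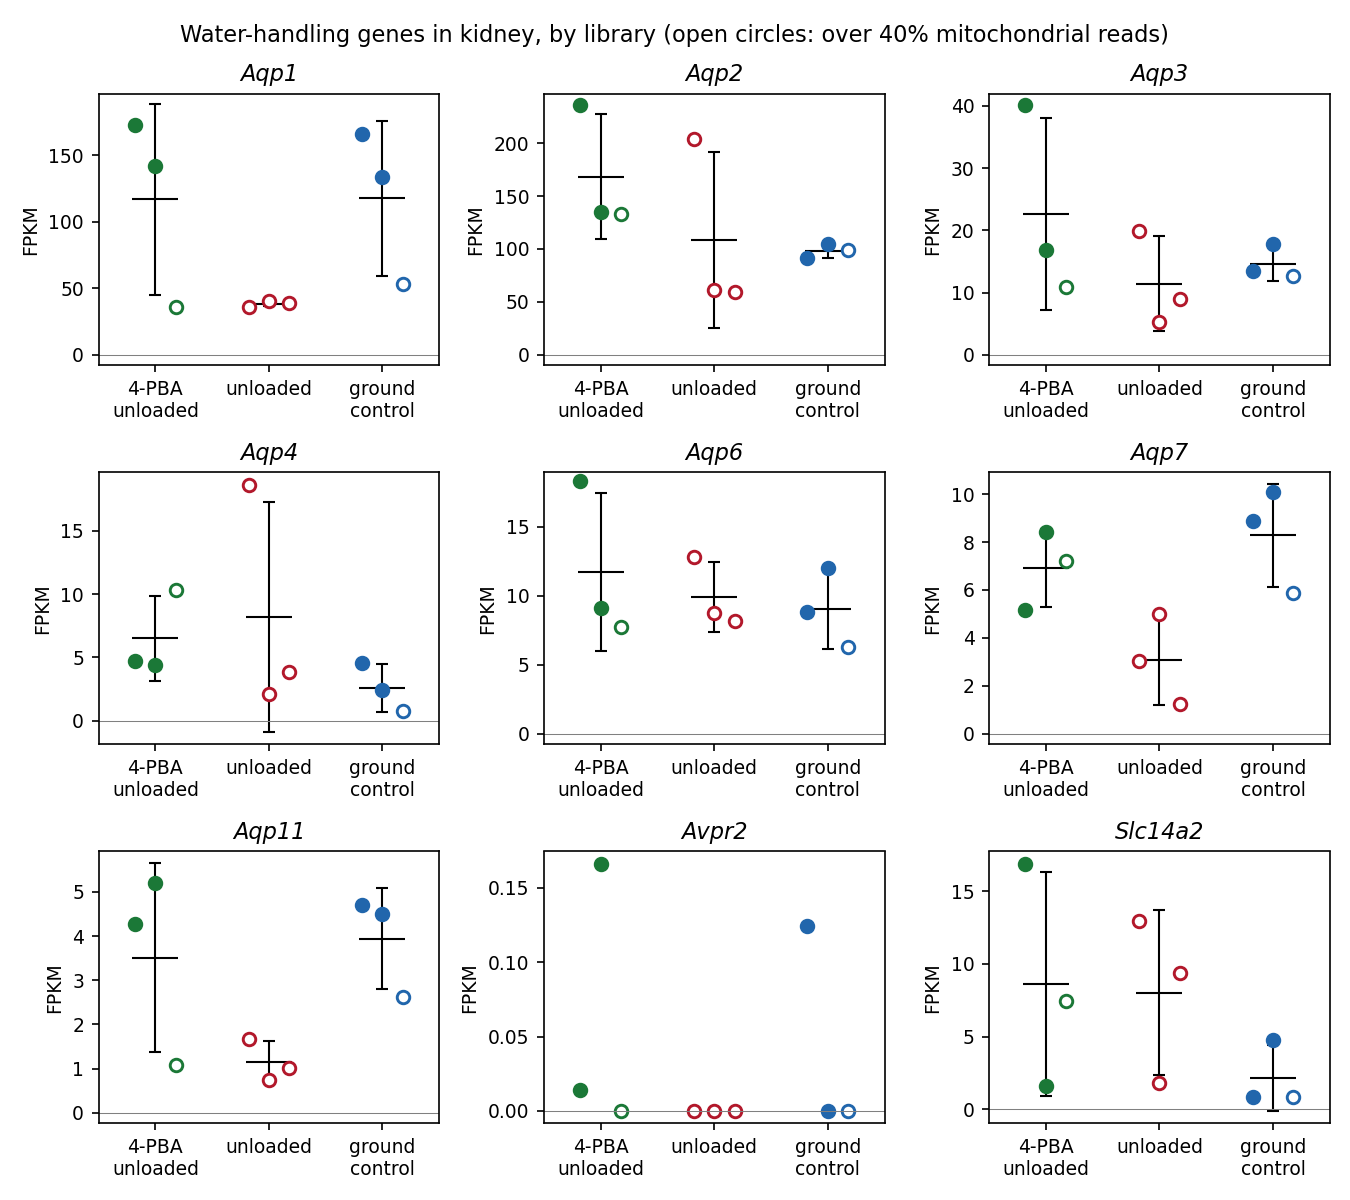
FPKM of the 9 genes in each library, with treated unloaded, unloaded and ground control libraries from left to right; bars give the mean ± SD of 3 libraries, except for Avpr2, and open circles are libraries with over 40% mitochondrial reads. Aqp1 lies at 36.0 to 53.1 FPKM in the 5 open circles and at 134 to 173 FPKM in the 4 filled ones, while all 3 treated libraries of Aqp2 lie above the ground controls.

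No member passed the threshold in any of the 3 comparisons. With limma on log2(FPKM + 1) and Benjamini-Hochberg adjustment over 12642 genes (adjusted p under 0.05), 0 of the 8 members that passed the low-value filter were called in unloaded mice against ground controls, where 10.2% of all genes tested were. The count was also 0 of 8 in treated against untreated unloaded mice (2.69% of all genes called, 1.16% higher and 1.53% lower) and 0 of 8 in treated unloaded mice against ground controls (0% called). Before adjustment, 3, 2 and 0 members had p under 0.05 in these comparisons, against 29.8%, 20.1% and 1.31% of all genes, and limma-voom on reads recovered from the values called 0 members in each. The filter, at least 1 FPKM in 3 or more libraries, left out Avpr2. The median log2 difference of the 8 members was -0.31 in unloaded mice against ground controls (all genes -0.03), 0.87 in treated against untreated unloaded mice (all genes 0.02) and 0.35 in treated mice against ground controls (all genes -0.00). These comparisons share libraries, so they are not independent of each other.

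Aqp1 (chromosome 6, 55336432 to 55348555), the constitutive water channel of the proximal tubule and thin descending limb, had 173, 142 and 36.0 FPKM in the treated libraries PBA1, PBA2 and PBA3. It had 36.2, 40.1 and 38.7 FPKM in HU1, HU2 and HU3, and 166, 134 and 53.1 FPKM in the ground controls GC1, GC2 and GC3. The 3 unloaded libraries lay close together and below every ground control, while PBA3 lay with the unloaded libraries and PBA1 and PBA2 with GC1 and GC2. Means were 117 ± 71.8 FPKM in treated mice, 38.3 ± 1.97 FPKM in unloaded mice and 118 ± 58.2 FPKM in ground controls (mean ± SD, n = 3 each). The log2 difference of unloaded mice from ground controls was -1.44 ± 0.60 (SE; unadjusted 95% interval -2.78 to -0.10; limma adjusted p = 0.142). That of treated from untreated unloaded mice was 1.31 ± 0.60 (SE; interval -0.03 to 2.65; limma adjusted p = 0.258). Aqp1 and 2 others were the members whose unloaded and ground control libraries did not overlap, 3 of 8, a state that held for 37.7% of all genes tested.

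Those others were Aqp7 and Aqp11. Aqp7 (chromosome 4, 41033074 to 41048139), which passes water and glycerol and sits in the brush border of the late proximal tubule as well as in fat cells, had 5.17, 8.40 and 7.20 FPKM in the treated libraries in order of number. It had 3.02, 4.999 and 1.25 FPKM in the unloaded libraries and 8.87, 10.1 and 5.88 FPKM in ground controls. All 3 unloaded libraries lay below the other 6. The log2 difference was -1.26 ± 0.38 for unloaded mice against ground controls (SE; limma adjusted p = 0.0611) and 1.04 ± 0.38 for treated against untreated unloaded mice (SE; limma adjusted p = 0.167). Aqp7 was the 1 member of 8 without overlap in this second comparison, where 20.3% of all genes had none. The summed FPKM of 7 adipocyte markers was 8.17, 9.03 and 127 in the treated libraries, 14.5, 18.7 and 14.9 in the unloaded ones and 6.88, 132 and 9.77 in ground controls, with 3 to 7 of the 7 above 0 in a library. PBA3 and GC2 had the highest sums and HU2 the highest among the unloaded libraries, and the part of fat cells in the Aqp7 values was not tested.

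Aqp11 (chromosome 7, 97724006 to 97738289), an aquaporin of the endoplasmic reticulum that is needed for normal proximal tubule cells, had 4.26, 5.19 and 1.09 FPKM in the treated libraries, 1.67, 0.751 and 1.00 FPKM in the unloaded libraries, and 4.70, 4.49 and 2.63 FPKM in ground controls. As for Aqp1, PBA3 lay among the unloaded libraries and GC3 was the lowest ground control. The log2 difference was -1.20 ± 0.42 for unloaded mice against ground controls (SE; limma adjusted p = 0.0914) and 0.95 for treated against untreated unloaded mice (limma adjusted p = 0.237). Depth was low in some of these libraries, with 22 reads of Aqp11 in HU2 and 64 each in HU3 and PBA3, against 1002 in PBA1.

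**Figure D2:**
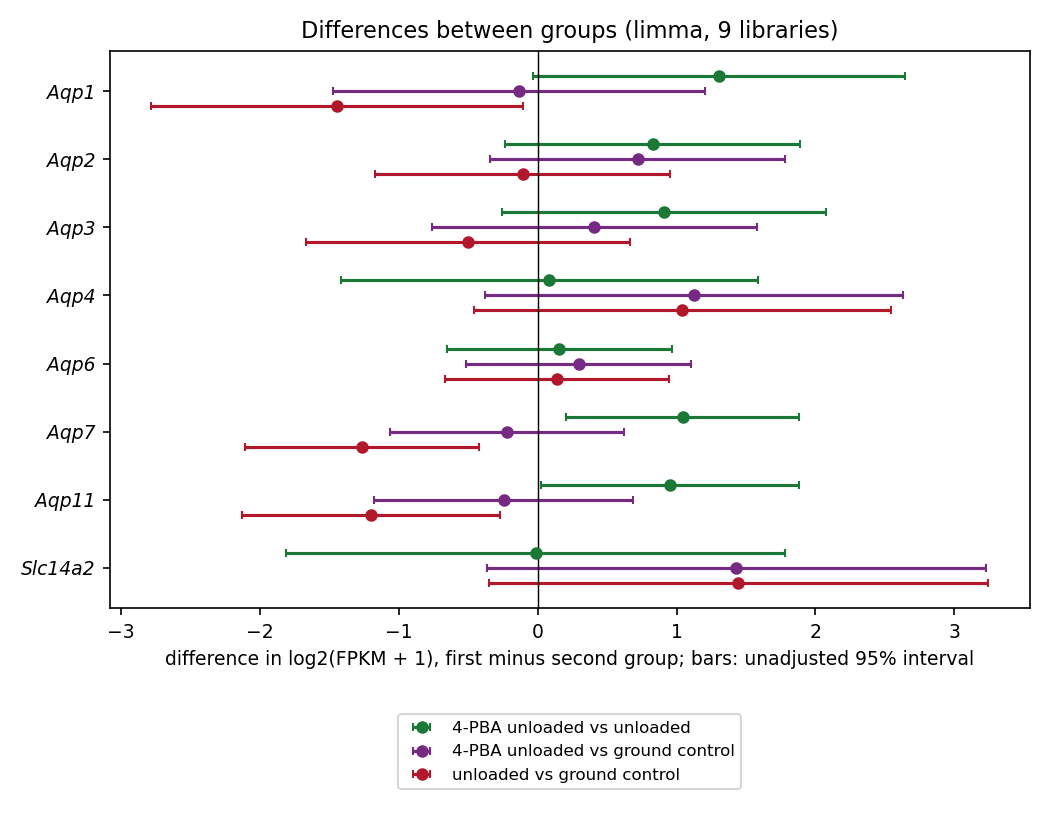
Differences in log2(FPKM + 1) of the 8 tested members in the 3 comparisons, with unadjusted 95% intervals from limma; points left of 0 are lower in the first-named group. Aqp1, Aqp7 and Aqp11 lie left of 0 in unloaded mice against ground controls with intervals that leave out 0, and the intervals of Aqp7 and Aqp11 also leave out 0 in treated against untreated unloaded mice.

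Aqp1 and Aqp11 split by the mitochondrial share of the library. Aqp1 was at 134 to 173 FPKM in the 4 libraries with 13.7% to 18.9% mitochondrial reads and at 36.0 to 53.1 FPKM in the 5 with 49.7% to 79.3%. Aqp11 was at 4.26 to 5.19 FPKM and at 0.751 to 2.63 FPKM in the same sets. Fibroblast markers were high in 4 of the 5 high-share libraries: the summed FPKM of 6, all above 0 in every library, was 74.5, 25.5 and 367 in PBA1, PBA2 and PBA3, 248 to 522 in unloaded mice and 32.0 to 65.8 in ground controls. Their part in the Aqp1 and Aqp11 values was not tested. With the mitochondrial share as a covariate the log2 difference of Aqp1 was 0.21 for unloaded mice against ground controls and -0.18 for treated against untreated unloaded mice, opposite in sign to the values without it. Without GC3 and PBA3 together, Aqp1 fell by 1.93 on the log2 scale in unloaded mice against ground controls (limma adjusted p = 0.00605) and Aqp11 fell by 1.41 (limma adjusted p = 0.0229). In treated against untreated unloaded mice, Aqp1 then rose by 2.00 (limma adjusted p = 0.00624) and Aqp11 by 1.44 (limma adjusted p = 0.0254). Leaving out PBA3 alone gave the same log2 differences in that comparison (limma adjusted p = 0.0247 for Aqp1 and 0.0234 for Aqp11), and adjusted p = 0.0352 for Aqp1 and 0.0196 for Aqp11 in unloaded mice against ground controls. Leaving out HU2 alone brought Aqp7 to a log2 difference of -1.60 in unloaded mice against ground controls (limma adjusted p = 0.0368). All 3 unloaded libraries had high mitochondrial shares, so within the low-share libraries no such comparison could be made; treated libraries and ground controls there (2 each) had 142 to 173 and 134 to 166 FPKM of Aqp1.

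**Figure D3:**
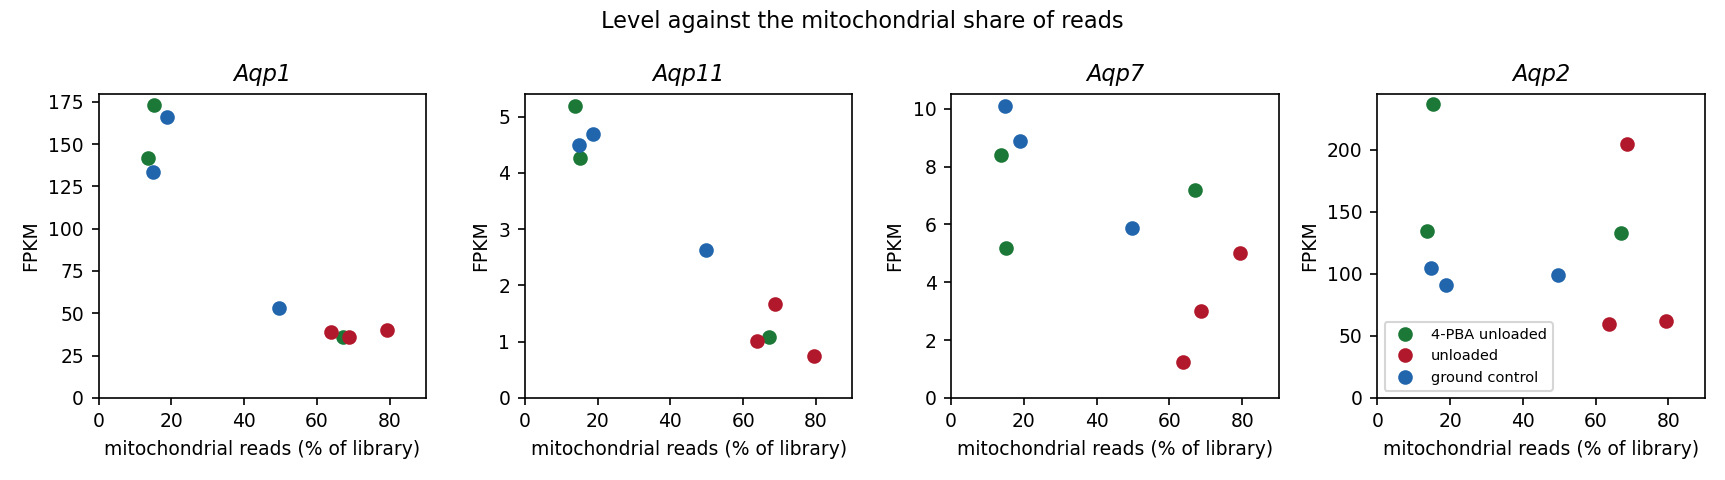
FPKM of Aqp1, Aqp11, Aqp7 and Aqp2 against the percentage of reads from the mitochondrial genome, 1 point per library. Aqp1 and Aqp11 are high in the 4 libraries at 13.7% to 18.9% and lower in the 5 at 49.7% to 79.3%; Aqp2 shows no such division, with 204 FPKM in HU1 and 91.1 FPKM in GC1.

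Aqp1 is also made by endothelial cells and red cell precursors. The summed FPKM of 8 endothelial markers, all above 0 in every library, was 68.4 to 131 in treated mice, 109.9 to 217 in unloaded mice and 63.8 to 90.4 in ground controls, and that of 5 erythroid markers was 416 to 1391, 206 to 312 and 482 to 1913 in the same order. Plvap alone made up 82.3 to 156 FPKM of the endothelial sum in unloaded mice and 30.2 to 46.1 FPKM in ground controls. Between these groups Egfl7, Tie1 and Cdh5 had log2 differences of -0.71, -0.24 and -0.18, and the other endothelial markers lay above 0. The part of endothelial cells and red cell precursors in the Aqp1 values was not tested.

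Aqp2 (chromosome 15, 99579055 to 99584547), the vasopressin-regulated apical channel of principal cells, had 236, 135 and 133 FPKM in PBA1, PBA2 and PBA3. It had 204, 61.6 and 59.2 FPKM in HU1, HU2 and HU3, and 91.1, 104.6 and 98.7 FPKM in the ground controls GC1, GC2 and GC3. All 3 treated libraries lay above all ground controls, the unloaded libraries lay on both sides of them, and HU1 was far above HU2 and HU3. Aqp2 averaged 168 ± 59.2 FPKM in treated mice, 108 ± 83.2 FPKM in unloaded mice and 98.1 ± 6.79 FPKM in ground controls (mean ± SD, n = 3 each). The log2 difference of treated mice from ground controls was 0.72 ± 0.47 (SE; interval -0.34 to 1.78; limma unadjusted p = 0.162, adjusted p = 1). It was 0.83 ± 0.47 for treated against untreated unloaded mice (SE; limma adjusted p = 0.361) and -0.11 ± 0.47 for unloaded mice against ground controls (SE; interval -1.17 to 0.96; limma adjusted p = 0.904). Aqp2 was the 1 member of 8 whose treated and ground control libraries did not overlap, which held for 8% of all genes. In RPM, scaled to all reads of a library, the groups did overlap, with 134 in PBA3 and 235 in GC2, and scaled to reads outside the mitochondrial genome they did not (342 to 676 in treated mice and 237 to 276 in ground controls). Urothelial markers also had higher sums in the treated libraries than in ground controls, though none of the 6 passed in limma: the summed FPKM of 6 was 88.7, 31.6 and 160.4 in PBA1, PBA2 and PBA3, 7.58 to 46.1 in unloaded mice and 2.36 to 20.4 in ground controls, with 3 to 6 of the 6 above 0 in a library. In treated mice against ground controls 5 of the 6 did not overlap, and their part in the Aqp2 values was not tested.

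Aqp3 (chromosome 4, 41092722 to 41098183), a basolateral channel of the same cells that also passes glycerol, had 40.2, 16.8 and 10.9 FPKM in the treated libraries, 20.0, 5.27 and 8.95 FPKM in the unloaded libraries and 13.5, 17.9 and 12.6 FPKM in ground controls. PBA1 and HU1 were the highest libraries of their groups, as for Aqp2, and the 3 groups overlapped. The log2 difference was 0.91 ± 0.52 for treated against untreated unloaded mice (SE; limma adjusted p = 0.360), -0.50 for unloaded mice against ground controls (limma adjusted p = 0.548) and 0.41 for treated mice against ground controls. Aqp3 and Aqp7 are neighbours on chromosome 4, 44582 bases apart, and Aqp2 and Aqp6 lie 16852 bases apart on chromosome 15 with Aqp5 between them.

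Aqp4 (chromosome 18, 15389394 to 15403684), the other basolateral channel, had 4.75, 4.39 and 10.4 FPKM in the treated libraries, 18.6, 2.09 and 3.89 FPKM in the unloaded libraries and 4.53, 2.46 and 0.773 FPKM in ground controls. HU1 was far above the other unloaded libraries, and the groups overlapped. Aqp4 averaged 8.197 ± 9.07 FPKM in unloaded mice and 2.59 ± 1.88 FPKM in ground controls (mean ± SD, n = 3 each). The log2 difference was 1.04 ± 0.67 for unloaded mice against ground controls (SE; limma adjusted p = 0.321), and leaving out HU1 brought it to 0.26.

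Principal cell markers other than the members were set beside them. Of 7 such markers, 2 fell in unloaded mice against ground controls and none rose: Hsd11b2, the enzyme that keeps glucocorticoids off the mineralocorticoid receptor (8.47 ± 5.98 FPKM in unloaded mice and 72.9 ± 24.6 FPKM in ground controls, mean ± SD, n = 3 each; its log2 difference was -3.14, limma adjusted p = 0.0190), and Scnn1b, a subunit of the epithelial sodium channel (log2 difference -1.91, limma adjusted p = 0.0274). Of all genes tested 4.9% fell and 5.32% rose in this comparison. The summed FPKM of the 7 markers was 77.1 to 138 in treated mice, 42.7 to 44.3 in unloaded mice and 102 to 172 in ground controls. Hsd11b2 alone was at 2.82 to 14.7 FPKM in unloaded mice and 53.1 to 100 FPKM in ground controls. Of the other markers, Scnn1a (log2 difference -1.32) and Scnn1g (-0.94) were lower without passing, and Fxyd4 (-0.03), Gata3 (-0.03) and Elf5 (0.95) were near 0 or above. To set each member against its own cell type, a difference was taken in each library. It was log2(FPKM + 1) of the member minus the mean log2(FPKM + 1) of these markers. Such a difference depends on how a library was scaled only through the added 1, which matters most for genes of low FPKM. For Aqp2 it was 4.45, 3.83 and 4.13 in the treated libraries, 5.21, 3.38 and 3.68 in the unloaded libraries and 3.33, 3.49 and 3.03 in ground controls. All treated libraries lay above all ground controls, with a difference of means of 0.86 (exact permutation test, two-sided, p = 0.1, the smallest possible for 3 against 3; adjusted p = 0.343 over 24 tests). Unloaded mice were 0.81 above ground controls with overlap (exact p = 0.2), and treated mice 0.05 above untreated unloaded mice (exact p = 1). For Aqp3 the exact p was 0.5 or more in all 3 comparisons, and for Aqp4 unloaded mice were 1.96 above ground controls (exact p = 0.2).

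For the proximal tubule members, the same measure against 10 proximal tubule markers ran the other way from their FPKM. These markers had a median log2 difference of -2.36 in unloaded mice against ground controls, where 7 of 10 fell and none rose (4.9% and 5.32% of all genes tested). Against them Aqp7 was 1.14 higher in unloaded mice than in ground controls and Aqp11 1.20 higher, both without overlap (exact p = 0.1 each, adjusted p = 0.343), and Aqp1 was 0.96 higher with overlap (exact p = 0.2). This holds against the mean of the markers. Of them, 2, Pck1 (log2 difference -0.62) and Slc5a12 (-0.56), differed from ground controls by less than the 3 aquaporins did. The marker Miox, at -2.16, already lay at the 1.56 percentile of all genes tested. Nearly every gene tested would therefore come out higher against such markers, so the sign was largely set by their choice. The log2 differences of Aqp1, Aqp7 and Aqp11 themselves lay at the 5.49, 7.48 and 8.42 percentiles. The added 1 weighs most on Aqp11, which had 0.751 to 1.67 FPKM in unloaded libraries. Its log2 ratio to Aqp1 was -0.36 in unloaded mice against ground controls, and 0.24 with 1 added to both. Whether its libraries would still not overlap without the added 1 was not tested. No test of a member against markers could pass at 3 against 3.

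**Figure D4:**
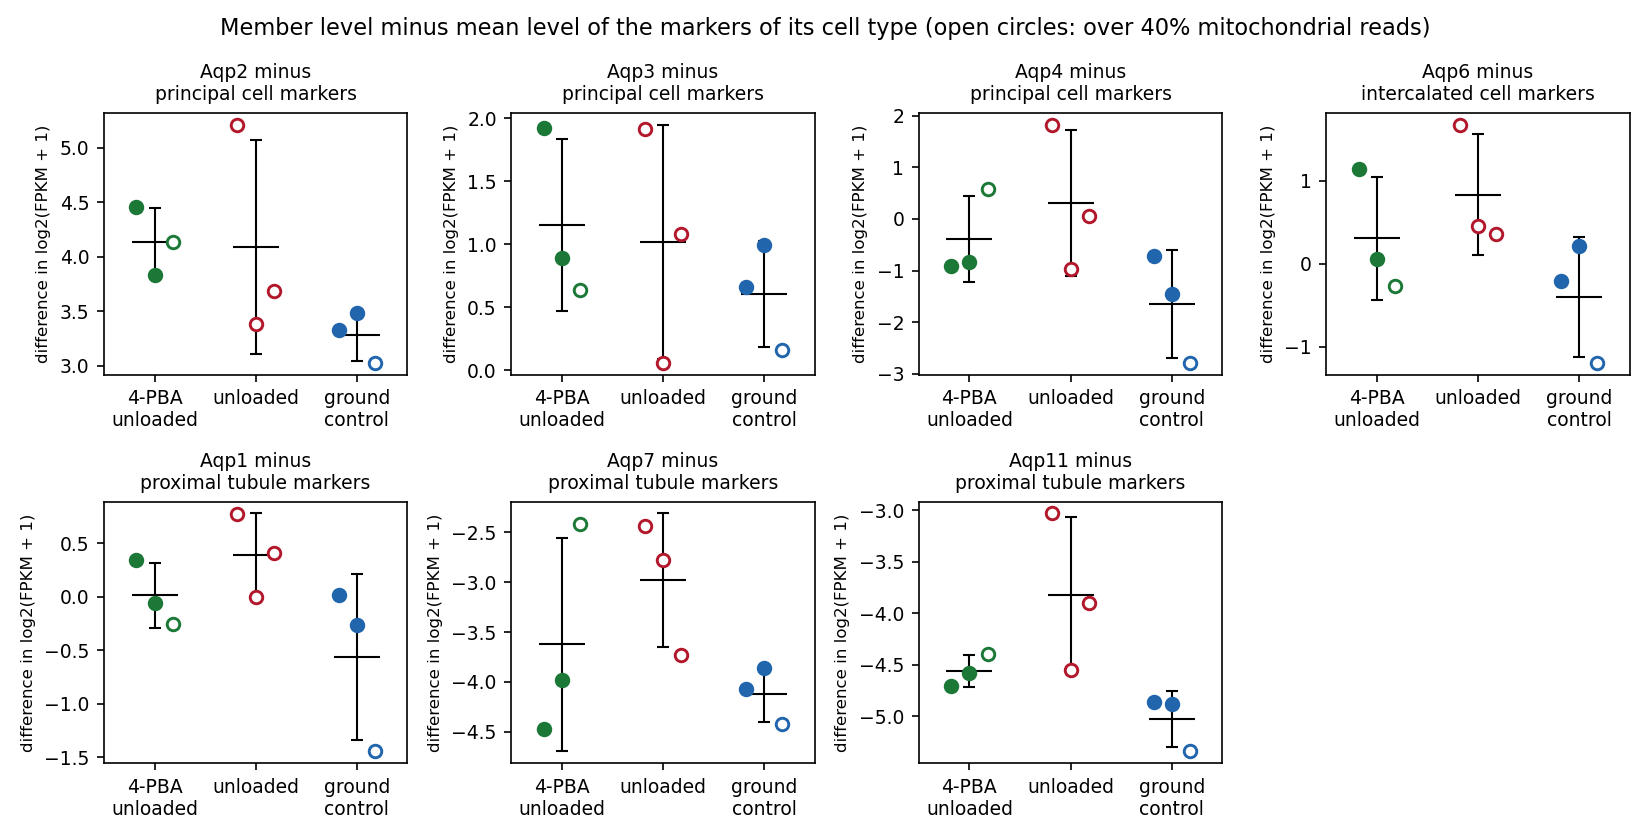
Difference per library between log2(FPKM + 1) of a member and the mean over the markers of its cell type. For Aqp6 these were markers of intercalated cells in general. Treated unloaded, unloaded and ground control libraries run from left to right. Bars give the mean ± SD of 3 libraries, and open circles mark over 40% mitochondrial reads. Treated libraries of Aqp2 (3.83 to 4.45) lie above the ground controls (3.03 to 3.49), and unloaded libraries of Aqp7, Aqp11 and Aqp6 lie above theirs.

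Aqp6 (chromosome 15, 99601400 to 99605477), an anion-permeable channel in vesicles of acid-secreting intercalated cells, had 18.3, 9.10 and 7.74 FPKM in the treated libraries, 12.8, 8.75 and 8.15 FPKM in the unloaded libraries and 8.80, 12.0 and 6.26 FPKM in ground controls. The groups overlapped throughout, and the log2 difference was 0.14 for unloaded mice against ground controls (limma adjusted p = 0.831). Of 9 markers of intercalated cells in general 2 fell in that comparison and none rose, where 4.9% of all genes tested fell and 5.32% rose. The 2 were Slc4a9 (log2 difference -3.78) and Slc26a4 (-2.62). Relative to the mean of the 9 markers Aqp6 was 1.23 higher in unloaded mice than in ground controls, without overlap (exact permutation test, two-sided, p = 0.1, adjusted p = 0.343 over 24 tests). The markers did not move alike: the log2 difference was 0.04 for Atp6v1g3 and 0.63 for Dmrt2. Because the 9 were not limited to acid-secreting cells, the 1.23 cannot be read as a rise of Aqp6 within its own cells.

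The V2 receptor Avpr2 (chromosome X, 73892102 to 73895502) was close to undetected. It had 1, 11 and 0 reads in PBA1, PBA2 and PBA3, 0 reads in all 3 unloaded libraries, and 7, 0 and 0 reads in GC1, GC2 and GC3. The highest level, 0.166 FPKM in PBA2, is near what 3 reads are worth in HU1 (0.174 FPKM) and below it in HU2 (0.334 FPKM), so a difference between groups was not detectable at this depth; such a floor covers counting error only. By the GENCODE M21 annotation, 2347 of its 2886 exonic bases (81.3%) are shared with exons of Arhgap4 on the opposite strand. The sources used here do not say whether reads were counted by strand, and the low values of Avpr2 are therefore uncertain. None of the exonic bases of the other members are shared with another gene in that annotation.

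Slc14a2 (chromosome 18, 78146940 to 78209094), which encodes the UT-A urea transporters of the inner medullary collecting duct and thin descending limb, had 16.9, 1.61 and 7.41 FPKM in the treated libraries, 12.9, 1.81 and 9.35 FPKM in the unloaded libraries and 0.835, 4.79 and 0.885 FPKM in ground controls. In each unloaded group replicate 2 lay within the range of ground controls and the other 2 libraries above it. Means were 8.63 ± 7.70 FPKM in treated mice, 8.03 ± 5.67 FPKM in unloaded mice and 2.17 ± 2.27 FPKM in ground controls (mean ± SD, n = 3 each), and the log2 difference was 1.45 ± 0.80 for unloaded mice against ground controls (SE; limma adjusted p = 0.254) and 1.43 for treated mice against ground controls (limma unadjusted p = 0.106). Its neighbour Slc14a1, the urea transporter of the descending vasa recta and red cells, had 2.30, 0.742 and 2.45 FPKM in the treated libraries, 3.69, 0.965 and 0.0738 FPKM in the unloaded libraries and 0.515, 1.75 and 1.03 FPKM in ground controls.

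The summed FPKM of the 7 aquaporins was 482, 321 and 206 in the treated libraries, 297, 124 and 121 in the unloaded libraries, and 298, 285 and 179.9 in ground controls. Aqp1 and Aqp2 made up most of it everywhere. Aqp2 made up 49.0%, 42.1% and 64.5% of the sum in the treated libraries, 68.9%, 49.8% and 48.9% in the unloaded libraries and 30.6%, 36.7% and 54.8% in ground controls. The share of Aqp1 was 35.9%, 44.3% and 17.4% in the treated libraries, 12.2%, 32.5% and 31.9% in the unloaded libraries and 55.8%, 46.9% and 29.5% in ground controls. The log2 ratio of Aqp2 to Aqp1 was 1.35 higher in unloaded mice than in ground controls, with overlap (exact permutation test, two-sided, p = 0.3; adjusted p = 0.692 over 18 tests of 6 such ratios, in which none had a smaller adjusted p).

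**Figure D5:**
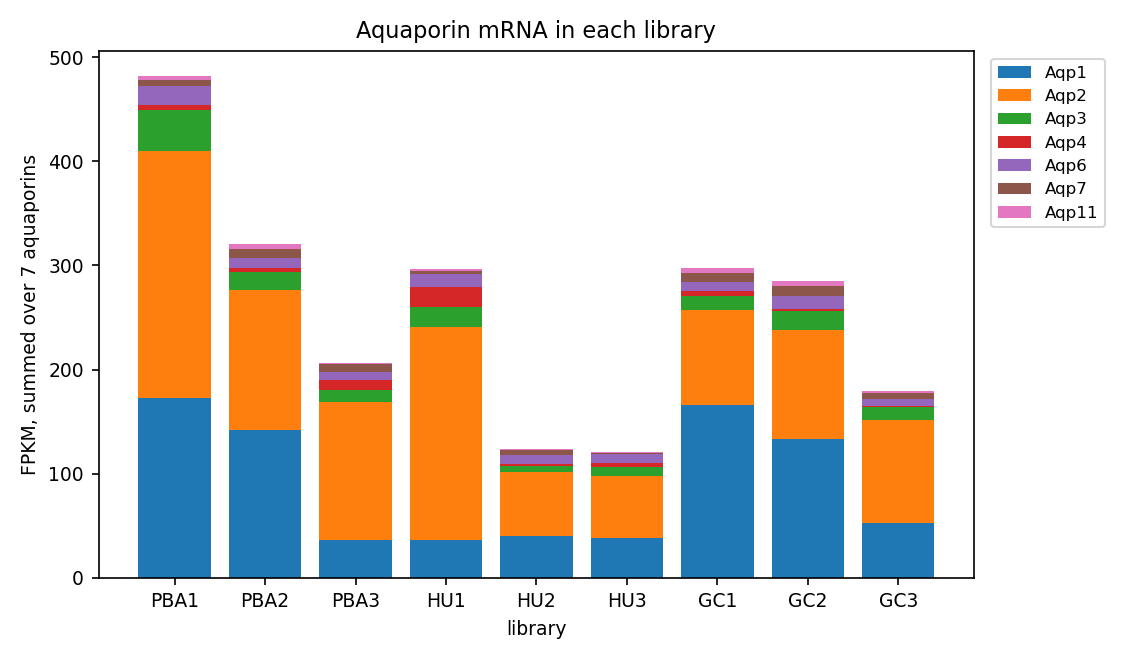
FPKM of 7 aquaporins stacked by library, treated unloaded (PBA), unloaded (HU) and ground control (GC) libraries from left to right, each 1 bar. The total is 206 to 482 FPKM in treated mice, 121 to 297 FPKM in unloaded mice and 179.9 to 298 FPKM in ground controls, and Aqp1 and Aqp2 fill most of every bar.

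The 5 other aquaporin genes listed were hardly present, and none passed the filter. Mip and Aqp12 had 0 reads in all 9 libraries. Aqp8 reached 3.05 FPKM in HU2 and was at 0.871 FPKM or less elsewhere, Aqp9 reached 1.33 FPKM in HU1, and Aqp5 was at 0.802 FPKM or less.

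Upstream of Aqp2, 15 of 22 genes of vasopressin and cyclic AMP signalling could be tested. In unloaded mice against ground controls 1 fell and none rose, where 4.9% of all genes tested fell and 5.32% rose, and the median log2 difference was 0.38 (all genes -0.03). Without HU2, PBA3 or GC3 in turn, 1 gene of the list rose. The gene that fell was Avpr1a, the V1a vasopressin receptor, which signals through calcium rather than cyclic AMP. It had 3.03, 1.21 and 2.76 FPKM in the treated libraries, 0, 0 and 0.497 FPKM in the unloaded libraries and 1.39, 2.27 and 1.47 FPKM in ground controls. The 3 unloaded libraries lay below the other 6, on 0, 0 and 9 reads against 43 to 202. The log2 difference was -1.23 for unloaded mice against ground controls (limma adjusted p = 0.0430) and 1.49 for treated against untreated unloaded mice (limma adjusted p = 0.0455), where it was the 1 gene of the list that passed. Both calls depend on most single libraries. Leaving out any 1 library other than PBA3 left no gene of the list higher in treated against untreated unloaded mice. Leaving out any 1 library other than PBA2 or PBA3 left none lower in unloaded mice against ground controls. With limma-voom the count was 0 in both. The regulatory subunit Prkar1a and the catalytic subunit Prkaca of protein kinase A, the list's most abundant genes, had log2 differences of 0.72 (limma adjusted p = 0.132) and 0.09 (limma adjusted p = 0.820) in unloaded mice against ground controls.

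Of 20 genes that move Aqp2 between vesicles and membrane or mark it for degradation, all tested, 1 rose and 1 fell in unloaded mice against ground controls, close to the share over all genes (5.32% higher and 4.9% lower). Nedd4, a ubiquitin ligase, had 35.8, 22.5 and 22.5 FPKM in unloaded mice and 9.50, 8.53 and 9.54 FPKM in ground controls (log2 difference 1.42, limma adjusted p = 0.0315). Hspa8, a heat shock cognate chaperone that binds Aqp2, had 139, 165 and 124 FPKM in unloaded mice and 349.8, 312 and 287 FPKM in ground controls (log2 difference -1.15, limma adjusted p = 0.0451). In treated mice Nedd4 was at 10.9, 8.03 and 20.1 FPKM and Hspa8 at 221, 360.0 and 217 FPKM, and none of the 20 passed in treated against untreated unloaded mice. The list's median log2 difference was 0.20 in unloaded mice against ground controls. Leaving out HU1, HU3, PBA1 or a ground control, 1 at a time, gave 0 higher and 0 lower each time, and leaving out PBA3 gave 2 higher. Of the exonic bases of Hspa8, 6.09% are shared with small nucleolar RNA genes.

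Among transcription factors of the collecting duct, Nr1h4, the bile acid receptor FXR, had a log2 difference of -1.14 in unloaded mice against ground controls (limma adjusted p = 0.123). Of 11 genes of salt and urea transport in the concentrating segments, 1 fell and none rose in the same comparison, with a median of -0.28. It was Bsnd, the barttin subunit of kidney chloride channels, with 3.94 ± 1.74 FPKM in unloaded mice and 14.2 ± 4.57 FPKM in ground controls (mean ± SD, n = 3 each; its log2 difference was -1.62, limma adjusted p = 0.0388; 0 of 11 fell without HU1, HU3, PBA1 or each ground control in turn, and 2 without HU2 or PBA3). Uromodulin, encoded by Umod, and the sodium-potassium-chloride cotransporter Slc12a1 had log2 differences of -1.04 (limma adjusted p = 0.439) and -1.50 (limma adjusted p = 0.0857).

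None of 8 tested genes of the osmotic stress factor NFAT5 and osmolyte handling, of 9 listed, passed in any comparison, and the median was -0.13 in unloaded mice against ground controls. The chaperone Cryab and the taurine transporter Slc6a6, the most abundant of them, had log2 differences of 0.76 (limma adjusted p = 0.352) and -0.50 (limma adjusted p = 0.412). Apart from Avpr1a, no gene of these lists of signalling, trafficking, transcription factors, transport and osmolytes passed in treated against untreated unloaded mice. None passed in treated mice against ground controls. Cell type markers are not among these lists. Of them, 2 of 10 for the proximal tubule, 1 of 9 for intercalated cells and 0 of 7 for principal cells rose in treated against untreated unloaded mice. There 1 of 3 for the distal convoluted tubule also rose, and 1 of 3 tested for liver fell. Of all genes tested, 1.16% rose and 1.53% fell there. Without PBA3, 3 genes of salt and urea transport rose and 1 trafficking gene fell in treated against untreated unloaded mice. Without HU2, 1 salt and urea gene rose there, and without GC3, 1 vasopressin and cyclic AMP gene fell.

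Over the 9 libraries, the genes whose log2(FPKM + 1) was most like that of a member were sought among 4559 protein-coding genes with a mean of at least 5 FPKM. Pearson's r was 0.988 for Coasy, 0.982 for Pepd and 0.975 for Mfsd1 with Aqp1, and 0.995 for Cyp7b1, 0.987 for Slc18a1 and 0.987 for Grhpr with Aqp11. It was 0.905 for Epcam, 0.893 for Dcps and 0.890 for Cldn7 with Aqp2, and 0.918 for Atp6v0c, 0.907 for Epcam and 0.895 for Nadk with Aqp3. The leading gene was Nucks1 for Aqp4 (0.958), Cops7a for Aqp6 (0.917), Hmgn2 for Aqp7 (0.966) and Rpl15 for Slc14a2 (0.920). All values of a library share its depth, tissue piece and mitochondrial share, so these r describe the 9 libraries only.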

How the data were processed

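Per the labels' protocols, messenger RNA was isolated with poly-T beads and made into strand-marked, paired-end libraries. The submitters' processing notes name the tools CASAVA, cutadapt and HISAT2 and the genome mm10; the sources used here give no versions and no read counter. The authors deposited 1 table of 54532 genes with a value per library. These deposited values behave as FPKM: each value times gene length and a constant of its library came out as whole reads (100% of values, within 0.01). That constant is not the library's read total.

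Tests used limma 3.58.1 (R 4.3.3) on log2(FPKM + 1), empirical Bayes with a trend, all 9 libraries in 1 fit of 3 groups without a block, a filter of at least 1 FPKM in 3 or more libraries (12642 genes), and Benjamini-Hochberg adjustment. Differences on this scale understate those of low genes. Exact permutation tests (scipy 1.17.1) were used for member minus marker differences and member ratios. No 2 libraries of the same group agreed within sampling noise. The code was tested on simulated data. Members and lists were chosen with earlier results of these data known. Genes other than members were named by rule: up to 4 per list past the threshold in unloaded mice against ground controls, or, where fewer than 2 passed, the 2 most abundant as well, and the 3 genes most like each tested member. Of the genes so chosen, a result is left out and not reported here; Pck1, Slc5a12, Akr1b3, Slc5a3 and Oxt were named after their values were seen. Promoter sequences are from RefSeq (GRCm38.p6), gene models from GENCODE M21. Alternatives covered scaling, filters, pseudocounts of 0.1 and 4, limma-voom on recovered reads, only the 2 groups compared, a replicate block, library weights, a covariate for the mitochondrial share, and libraries left out. Figures used matplotlib 3.10.9.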

Additional observations from a re-analysis of the deposited data

How the results depend on the processing

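Depth limits Avpr2 and, in unloaded libraries, Aqp11 and Aqp7. The 3 libraries a group limit every test. In unloaded mice against ground controls 2 members were called with scaling by total reads (Aqp7 and Aqp11), 1 with FPKM of at least 1 in all libraries (Aqp7), 1 with only the 2 groups fitted (Aqp11), 3 with library weights (Aqp1, Aqp7 and Aqp11) and 2 without GC3 and PBA3 (Aqp1 and Aqp11); leaving out 1 library at a time gave 0 to 2. In treated against untreated unloaded mice library weights called 5 (Aqp1, Aqp2, Aqp3, Aqp7 and Aqp11), leaving out GC3 and PBA3 called 2, and leaving out 1 library gave 0 to 2. In treated mice against ground controls every alternative gave 0 members and 0 genes. Library weights are estimated from the spread of the libraries themselves.

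Genes called in unloaded mice against ground controls, 1292, became 2273 with scaling by total reads, 238 without a filter, 99 with the covariate and 3983 with library weights, and 69 (without GC1) to 2360 (without PBA3) with 1 library left out; without HU3, GC2 and GC3 in turn they were 669, 230.0 and 126. In treated against untreated unloaded mice 340 became 650 with scaling by total reads, 17 without a filter, 63 with FPKM of at least 1 in all libraries, 145 with a pseudocount of 0.1, 17 with only 2 groups, 121 with the covariate, 2045 with library weights and 1118 without GC3 and PBA3, and 36 (without PBA2) to 1320 (without PBA3) with 1 library left out; without HU1, PBA1, GC1, GC2 and GC3 in turn they were 216, 76, 106, 104 and 131. Scaling by total reads moved the median of all genes to -0.78 in unloaded mice against ground controls and 0.71 in treated against untreated unloaded mice; scaling by reads outside the mitochondrial genome moved it to 0.18 and -0.12.

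Libraries with the same number correlated at -0.196 to 0.288 in their deviations from group means, and those with different numbers at -0.334 to 0.310. With 3 libraries a group, these values cannot tell whether the numbers pair samples. With a replicate block 0 members were called in each comparison, and 904, 137 and 0 genes in unloaded mice against ground controls, treated against untreated unloaded mice, and treated mice against ground controls.

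Log2 differences of members that changed sign, none of them called, were in unloaded mice against ground controls -0.82 (Aqp6, total reads), 0.12 (Aqp2, reads outside the mitochondrial genome), 0.21, 0.16 and 0.37 (Aqp1, Aqp2 and Aqp3, covariate), -0.044 (Aqp6, library weights) and -0.076 (Aqp6, without GC3 and PBA3). In treated against untreated unloaded mice they were 0.69 and 0.48 (Slc14a2, total reads and library weights), -0.0068 (Aqp4, reads outside the mitochondrial genome), -0.014 and 0.0086 (Aqp4 and Slc14a2, pseudocount of 4), -0.15 (Aqp4, limma-voom), -0.18, -0.39 and -0.0049 (Aqp1, Aqp6 and Aqp11, covariate) and -0.26 (Aqp4, without GC3 and PBA3). In treated mice against ground controls they were 0.027, 0.042 and 0.072 (Aqp1, covariate, library weights, without GC3 and PBA3) and 0.029 (Aqp11, without GC3 and PBA3). The cause was not tested.

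With 1 library left out, members that changed sign ranged from -0.69 to 0.20 (Aqp2) and -0.076 to 0.35 (Aqp6) in unloaded mice against ground controls. In treated against untreated unloaded mice they ranged from -0.71 to 0.73 (Slc14a2), -0.47 to 0.86 (Aqp4) and -0.19 to 0.38 (Aqp6). In treated mice against ground controls they ranged from -0.63 to 0.56 (Aqp1), -0.093 to 0.80 (Aqp3), -0.052 to 0.52 (Aqp6) and -0.55 to 0.24 (Aqp11).

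Relative to markers, the ranges across 0 were -0.11 to 0.91 (Aqp7, treated mice against ground controls), -0.034 to 0.89 (Aqp3, unloaded mice against ground controls) and, in treated against untreated unloaded mice, -0.31 to 0.61 (Aqp2), -0.35 to 0.58 (Aqp3) and -1.33 to 0.060 (Aqp4). For log2 ratios they were -1.06 to 0.14 (Aqp2 to Aqp1), -0.10 to 0.43 (Aqp3 to Aqp2), -0.73 to 0.65 (Aqp7 to Aqp1) and -0.20 to 0.45 (Aqp11 to Aqp1) in treated against untreated unloaded mice, and for Aqp7 to Aqp1 -0.56 to 0.42 in unloaded mice and -0.86 to 0.51 in treated mice against ground controls. As ratios of FPKM + 1, Aqp7 to Aqp1 gave 0.18 in unloaded mice against ground controls and -0.26 in treated against untreated unloaded mice, and Aqp11 to Aqp1 gave 0.24 and -0.35.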

Other observations

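In the 2 libraries with the most Aqp4, some but not all genes tied to the medulla were also high; the genes were picked after their values were seen. Aqp4 had 10.4 FPKM in PBA3 and 18.6 FPKM in HU1. Cryab, a chaperone abundant in the inner medulla, had 205 FPKM in PBA3, 332 FPKM in HU1 and 67.6 to 108 FPKM in the other 7 libraries. Akr1b3, the aldose reductase that makes the osmolyte sorbitol, had 17.5 FPKM in PBA3, 28.1 FPKM in HU1 and 2.02 to 8.78 FPKM elsewhere. Other genes did not follow: Slc14a2 was highest in PBA1 (16.9 FPKM), the taurine transporter Slc6a6 was lowest in HU1 (3.98 FPKM), and the inositol transporter Slc5a3 was lowest in PBA3 (2.17 FPKM).

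Oxt, the gene of oxytocin, had 0, 0.650 and 0 FPKM in the treated libraries, 7.17, 3.59 and 2.75 FPKM in the unloaded libraries and 0, 0 and 2.55 FPKM in ground controls. These rest on few reads: 0, 8 and 0 in the treated libraries, 23, 6 and 10 in the unloaded libraries, and 0, 0 and 15 in ground controls. The difference did not pass in unloaded mice against ground controls (limma adjusted p = 0.0611) or in treated against untreated unloaded mice (limma adjusted p = 0.0644). Avp, the gene of vasopressin itself, had 4 reads in HU2 and 0 in the other 8 libraries.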
